A study of Mus musculus with 8 samples.

Results

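The genes described here are p53 itself, its main regulators and a set of its established target genes in the mouse, 39 genes in all, chosen by symbol from a table of 54838 Ensembl genes. All 39 symbols matched 1 gene of the table each. RNA was measured in acute myeloid leukemia (AML) cells that carry the fusion RUNX1-RUNX1T1 on a C57BL/6 background and that had been transplanted into Ptprca mice. The labels call these mice sub-lethally irradiated, while the study's methods name irradiation for its other leukemia models. The 4 samples of the Vehicle group come from recipients that got the carrier alone, and the 4 samples of the AG636 group from recipients dosed orally with AG636 (100 mg/kg, b.i.d.). Treatment lasted 1 day. AG636 inhibits DHODH, the mitochondrial enzyme that makes orotate in the de novo synthesis of pyrimidine nucleotides. The cells in both groups were sorted from bone marrow and spleen, as cKit-positive and CD11b-negative cells in one passage of the study and as cKit-high cells in another. The tissue of each sample and the age of the mice were not given in the sources used here. In the study's description of this experiment a group has fewer mice than it has samples here, so some samples may share a mouse, and the SDs and p-values below measure the spread between samples and may be too small for mice. The leukemia is an established tumor that was passaged from mouse to mouse, and its Trp53 genotype was also not given in the sources used here.

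The transcription factor p53 is held at a low level by the ubiquitin ligase Mdm2 and its partner Mdm4. DNA damage, a shortage of nucleotides or a block in ribosome assembly can release it from them. It then binds pairs of a 10-base DNA element near its target genes and raises the transcription of genes that arrest the cell cycle, start apoptosis, repair DNA and adjust metabolism. It also raises its own inhibitors, Mdm2 among them, in a feedback loop. Since p53 is controlled mostly at the level of the protein, the amount of Trp53 mRNA says little about its activity.

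The libraries held between 6120030 and 7162036 counts, of which the 39 genes took 0.141 to 0.155% in Vehicle and 0.166 to 0.234% in AG636. Levels are given as CPM, read counts scaled to a common library size. The reads come from the 3′ end of transcripts, so a count does not grow with transcript length. Vehicle sample 4 and AG636 sample 3 stood apart from the rest of their groups in multidimensional scaling (at 0.93 and −1.27 on the second dimension), and calls that change without both are given as such. The label of the cells was compared with marker genes. Kit, the receptor used in the sort, lay between 153 and 252 CPM in the 8 samples, and Itgam, which encodes CD11b, stayed below 1 CPM. Granule genes of myeloid progenitors were low, with Mpo, which had the most counts of them over the 8 samples, between 0.467 and 4.77 CPM. The erythroid factor Klf1 lay at 112 to 239 CPM, the globin gene Hbb-bs at 1022 to 3708 CPM and the mast cell and basophil receptor gene Ms4a2 at 540.3 to 1074 CPM, so that transcripts of erythroid and mast cells were abundant in a sort labelled as AML cells. The summed level of 8 erythroid markers was 2248 to 6080 CPM in Vehicle and 4715 to 6228 CPM in AG636, and that of 8 mast cell and megakaryocyte markers was 849.8 to 1129.9 and 659.6 to 1703 CPM. The markers of mature myeloid cells summed to 44.6 to 104 and 18.4 to 197 CPM, those of B cells to 6.61 to 14.0 and 11.8 to 24.1 CPM, and those of T and NK cells to 4.87 to 9.91 and 5.43 to 20.4 CPM. Of 52 markers in 6 lists, 30 were tested and 2 rose, the globin gene Hbb-bt (log2 change 0.90) and the B cell gene Cd79a (1.83), which passed the filter on low values through its AG636 samples alone. Of all genes tested, 5.47% were called for a rise. All 8 erythroid markers had a positive log2 change, with a median of 0.44, and the anion exchanger gene Slc4a1 was at 1.58 (limma adjusted p = 0.0501). The 5 tested B cell markers were also all positive, with a median of 0.71. Of the 5 tested mast cell and megakaryocyte markers 4 were positive, with a median of 0.26, and the platelet gene Pf4 was at 2.89 (adjusted p = 0.0943). The markers of mature myeloid cells went the other way, with 5 of 7 tested genes negative and a median of −0.50. Among the 4 tested progenitor markers 3 were positive, with a median of 0.17, and the 1 tested marker of T and NK cells was at 0.12. The part of these cells in the results on p53 genes was not tested. In bulk RNA, a change in the mixture of cells and a change in RNA per cell cannot be told apart.

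Of the 39 genes, 31 were expressed highly enough to be tested. After AG636, 12 genes rose, 1 fell and 18 were not called, at an adjusted p-value under 0.05 in a limma-voom fit over all 10911 genes tested. The share of all tested genes that was called is 5.47% for a rise and 8.49% for a fall. The median log2 fold change (AG636 minus Vehicle, here log2 change) of the 31 tested genes was 0.48, beside −0.01 for all genes tested. Among the tested genes, Eda2r and Ak1 lay below the filter in at least 1 Vehicle sample and passed through their AG636 values, and Plk3 lay below it in at least 1 AG636 sample. The groups did not overlap in 13 genes that were higher in AG636 and in 1 that was lower, where 9.35% and 12.9% of all tested genes had no overlap in those directions. Without Vehicle sample 4 and AG636 sample 3 together, 10 of the genes were called higher and 2 lower, Trp53 and Plk3. In that fit 747 of all genes were called higher and 798 lower. The median log2 change of the p53 genes was 0.34. Plk3 passed the filter through its Vehicle samples, so its call lends no support to a fall.

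**Figure D1:**
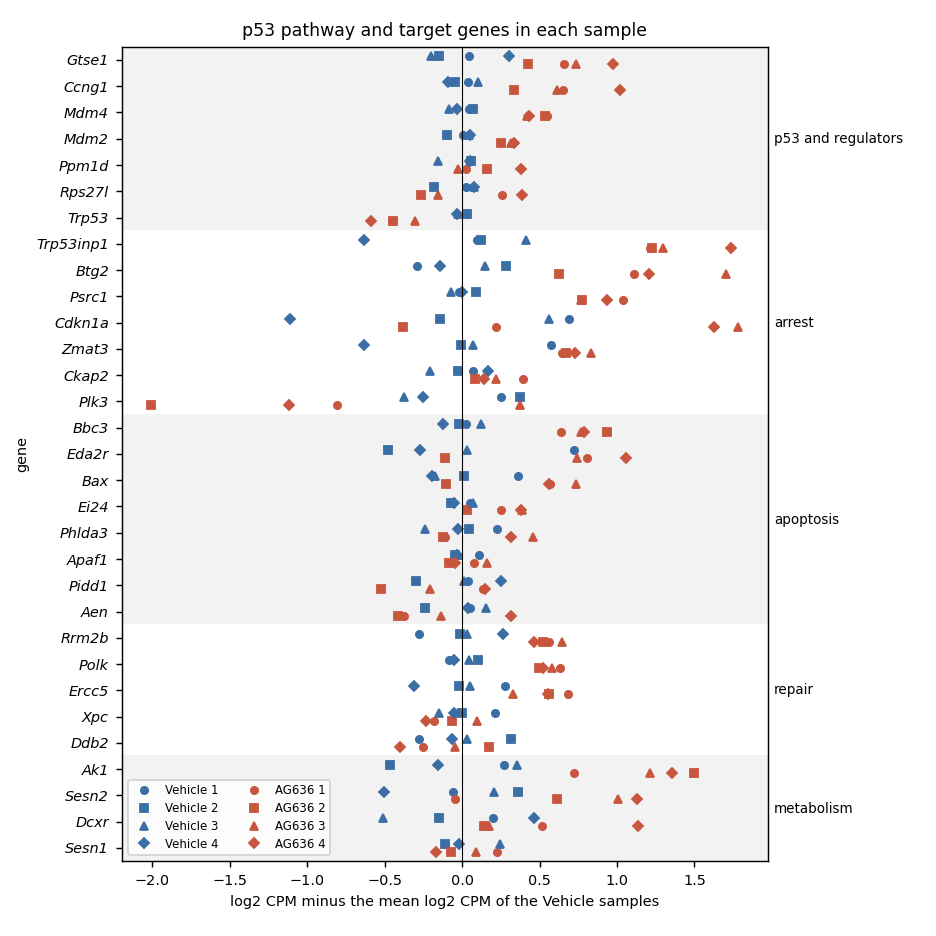
Each row is 1 of the 31 tested genes, and each point is 1 sample, placed at its log2 CPM minus the mean log2 CPM of the 4 Vehicle samples, with Vehicle in blue, AG636 in red and the marker shape giving the sample number. The red points lie to the right of all blue points for 13 genes, to the left of them for Trp53, and are widely spread for Cdkn1a.

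**Figure D2:**
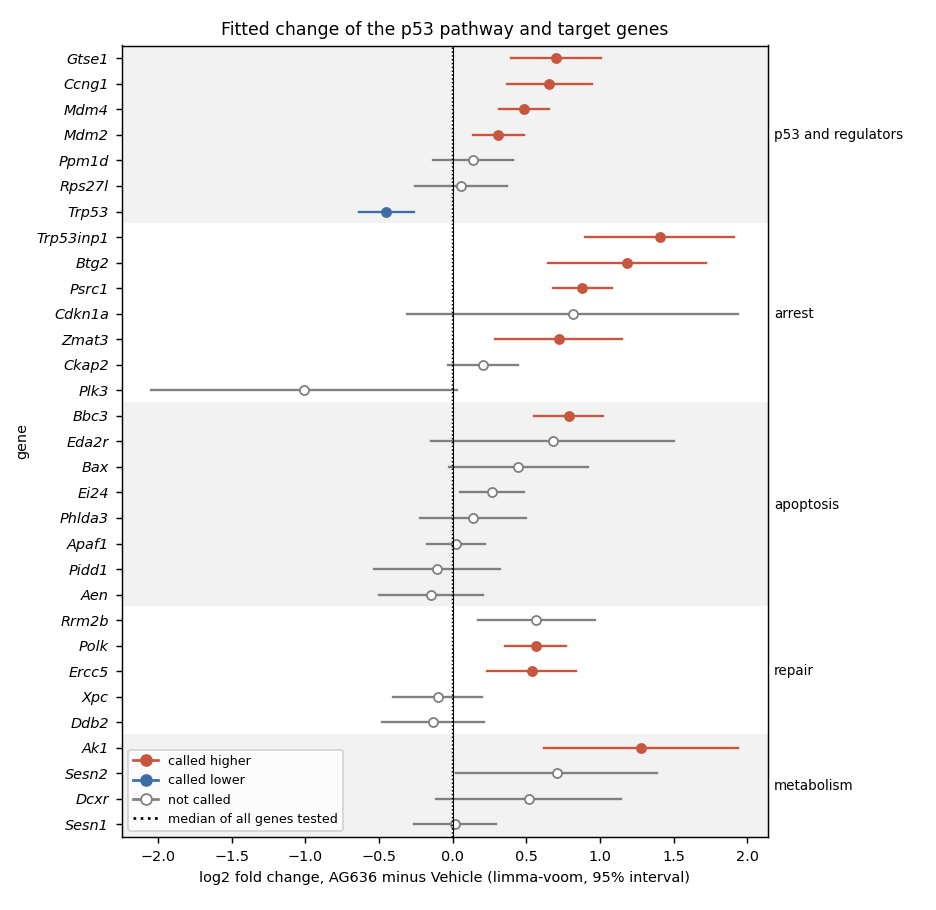
Each row is 1 tested gene, with its limma-voom log2 change (AG636 minus Vehicle) as a point and the 95% interval as a bar, and filled points passed the adjusted p-value of 0.05. The 12 genes called higher span 0.31 to 1.40, and Cdkn1a has a wide interval of −0.31 to 1.94.

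Binding elements for p53 were searched in the promoter windows of these genes, to show the sequence through which the protein can act on them. A window holds 250 bases before and 50 bases after the start site in RefSeq (GRCm38.p6), and 31 of the 39 genes had a window. The search took the consensus p53 element, a pair of 10-base units that each read as 3 purines, C, 2 bases that are A or T, G, and 3 pyrimidines. Up to 13 bases were allowed between the units and at most 3 mismatches in all, with the C and G of both units intact. The motif reads the same on both strands. A match stood in the windows of 15 of the 31 genes (48.4%), and 17.4% of all 27025 genes with a window had such a match. With the units directly adjoining, a count made after the first result was seen, 10 of 31 genes (32.3%) and 1.63% of all genes had a match. The genes were picked as known p53 targets, so this excess is a description of the list. A match was found for 4 of the 10 called-higher genes with a window and for 11 of the 21 other genes with a window. The following matches are shown for genes named below, each 5′ to 3′ on the strand of the gene, with the 10-base units in capitals and the bases between them in lower case. Of the first 4, which rose after AG636, Gtse1 has its match across the start site.
Ccng1, chr11:40755462-40755481, − strand: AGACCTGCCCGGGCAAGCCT
Bbc3, chr7:16309486-16309505, + strand: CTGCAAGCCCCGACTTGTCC
Gtse1, chr15:85859945-85859964, + strand: GAGCAAGTTGGGGCTTGCCT
Mdm4, chr1:133025626-133025650, − strand: AAGCAAGGTAtgctgTGGCAAGCCT
Rps27l, chr9:66946296-66946315, + strand: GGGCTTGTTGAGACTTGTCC
Ckap2, chr8:22186003-22186022, − strand: AGACATGTCCTGACTTGTCA
Bax, chr7:45467079-45467099, − strand: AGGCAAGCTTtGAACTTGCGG
Cdkn1a, chr17:29090906-29090937, + strand: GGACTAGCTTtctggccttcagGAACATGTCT
The Ccng1, Gtse1 and Rps27l matches have 1 mismatch each, those of Ckap2 and Bax 2, those of Bbc3 and Mdm4 3, and that of Cdkn1a has 0 mismatches with 12 bases between its units. A match close to the consensus was thus present both in genes that rose and in genes that were not called. Trp53, which was called lower, also has a match, with adjoining units and 3 mismatches. The matches of Trp53, Aen, Dcxr, Gadd45a, Plk3, Sesn1 and Tigar are not shown, nor are further matches of Bbc3 and Rps27l in another window of each gene. A match in these letters does not show that p53 was bound, and a window without a match says nothing about sites elsewhere in the gene, such as the intronic sites known for Mdm2.

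The first group comprises p53 and 6 genes that act on it. In this group 4 genes rose, Trp53 fell, and 2 were not called, where 5.47% of all tested genes rose and 8.49% fell. Trp53 mRNA (ENSMUSG00000059552, GRCm38 chromosome 11, 69580359 to 69591873, + strand) was measured at 85.7, 85.9, 82.3 and 82.2 CPM in Vehicle samples 1 to 4 and at 61.3, 61.6, 67.8 and 55.8 CPM in AG636 samples 1 to 4. All 4 AG636 samples lay below all Vehicle samples. The log2 change was −0.45 (SE 0.09, limma adjusted p = 0.00796), and it was under the threshold in all 18 alternative fits.

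Both inhibitors of p53 were higher while Trp53 itself was lower. Mdm2 (ENSMUSG00000020184, chromosome 10, 117688875 to 117710758, − strand), the ubiquitin ligase that marks p53 for degradation, lay at 59.9, 55.6, 61.4 and 61.6 CPM in Vehicle and 75.0, 70.9, 74.4 and 75.2 CPM in AG636. This small rise, with a log2 change of 0.31 (SE 0.08, limma adjusted p = 0.0276), was the least of the 12. It was lost without Vehicle sample 1, 2 or 3, without AG636 sample 1, or with no filter on low counts (adjusted p up to 0.110). Mdm4 (ENSMUSG00000054387, chromosome 1, 132959484 to 133030561, − strand), which covers the activation domain of p53, lay at 134, 137, 123 and 127 CPM in Vehicle and at 189.9, 188, 174 and 175 CPM in AG636. The log2 change was 0.48 (SE 0.08, limma adjusted p = 0.00428). Mdm4 is more often described as a regulator of p53 than as its target.

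Ccng1 (ENSMUSG00000020326, chromosome 11, 40748552 to 40755311, − strand), or cyclin G1, brings the phosphatase PP2A to Mdm2. It lay at 121, 114, 126 and 111 CPM in Vehicle and at 185, 149, 180.5 and 239.7 CPM in AG636. The rise was seen in each AG636 sample and was largest in sample 4, with a log2 change of 0.66 (SE 0.13, limma adjusted p = 0.00981). Gtse1 (ENSMUSG00000022385, chromosome 15, 85859745 to 85876573, + strand) is a microtubule-binding protein of the G2 phase that binds p53 and moves it out of the nucleus. It lay at 74.4, 65.0, 62.7 and 88.8 CPM in Vehicle and 114, 96.9, 120.0 and 142 CPM in AG636, a log2 change of 0.70 (SE 0.14, adjusted p = 0.00981). The remaining 2 genes were not called. Ppm1d encodes the Wip1 phosphatase, which ends the damage signal, and had a log2 change of 0.14 (95% interval −0.13 to 0.41). Rps27l, a ribosomal protein that binds Mdm2, was the most abundant of the 39 genes by 3′ counts, at 309 ± 25.4 CPM in Vehicle and 326 ± 70.9 CPM in AG636 (SD, n = 4). Its log2 change was 0.06 (95% interval −0.26 to 0.37). How reads shared with its paralog Rps27 were counted was not given in the sources used here. It turned slightly negative when single samples were left out, down to −0.038.

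**Figure D3:**
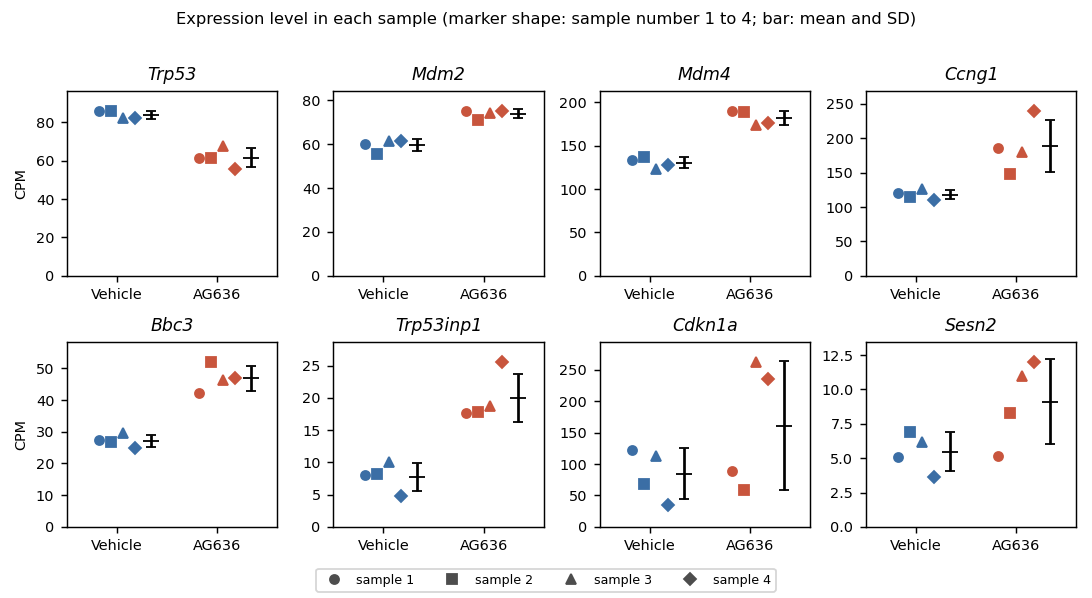
CPM of 8 genes in each sample, 4 Vehicle samples in blue and 4 AG636 samples in red, with the sample number given by the marker shape and the mean and SD as a black bar, on axes that start at 0. The groups are separate for Trp53, Mdm2, Mdm4, Ccng1, Bbc3 and Trp53inp1, and they overlap for Cdkn1a and Sesn2, where AG636 samples 3 and 4 are the highest.

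Of 9 genes that act on the cell cycle, 4 rose, 3 were not called and 2 could not be tested, where 5.47% of all tested genes rose. The largest rise among the 31 tested genes was that of Trp53inp1 (ENSMUSG00000028211, chromosome 4, 11156431 to 11174379, + strand), a stress protein that takes part in the phosphorylation of p53 and in autophagy. It lay at 8.01, 8.15, 10.1 and 4.72 CPM in Vehicle and at 17.7, 17.9, 18.8 and 25.6 CPM in AG636. The groups were far apart, with a log2 change of 1.40 (SE 0.23, limma adjusted p = 0.00472) and a fold of 2.65. Btg2 (ENSMUSG00000020423, chromosome 1, 134075170 to 134079120, − strand), an antiproliferative protein that works with the CCR4-NOT deadenylase, lay at 9.18, 13.8, 12.5 and 10.2 CPM in Vehicle and at 24.7, 17.6, 37.5 and 26.5 CPM in AG636. Its log2 change was 1.18 (SE 0.24, adjusted p = 0.0113), and AG636 sample 3 was the highest.

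Zmat3 (ENSMUSG00000027663, chromosome 3, 32334792 to 32366014, − strand), a zinc finger protein that binds RNA and acts on splicing, lay at 75.2, 49.9, 52.9 and 32.3 CPM in Vehicle and at 78.7, 80.1, 90.0 and 83.5 CPM in AG636. The AG636 samples were close together and the Vehicle samples were spread, so that Vehicle sample 1 almost reached the AG636 range. The log2 change of 0.72 (SE 0.20, limma adjusted p = 0.0357) passed in only 2 of the 8 fits that left out 1 sample, those without Vehicle sample 1 or 4. It also missed the threshold without Vehicle sample 4 and AG636 sample 3 together (log2 change 0.49, adjusted p = 0.0516) and with sample quality weights, and over all alternatives its adjusted p-value reached 0.0857. Psrc1 (ENSMUSG00000068744, chromosome 3, 108383839 to 108388231, + strand) binds microtubules at the mitotic spindle. It lay at 76.6, 83.0, 74.1 and 77.9 CPM in Vehicle and at 160.5, 133, 132 and 149 CPM in AG636, a log2 change of 0.88 (SE 0.09, adjusted p = 0.00109). This was the smallest adjusted p-value among the 39 genes.

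Cdkn1a (ENSMUSG00000023067, chromosome 17, 29090976 to 29100727, + strand) encodes p21, the inhibitor of cyclin-dependent kinases through which p53 arrests the cell cycle. Its level was 123, 68.9, 113 and 35.1 CPM in Vehicle and 88.5, 58.3, 263 and 236 CPM in AG636. AG636 samples 3 and 4 lay above every Vehicle sample, and AG636 samples 1 and 2 lay within the Vehicle range. With a log2 change of 0.81 (SE 0.51, limma adjusted p = 0.308, 95% interval −0.31 to 1.94), Cdkn1a was not called, and the interval allows both no change and a rise larger than that of any gene called. The value depended on single samples, and ranged from 0.15 to 1.21 over the alternatives with no adjusted p-value under 0.114. Without Vehicle sample 4 and AG636 sample 3 together it was 0.15. The mast cell protease genes Cpa3 and Cma1 also stood out in AG636 sample 3, at 285 and 277 CPM. In AG636 sample 4, Cpa3 was above the other 6 samples, at 135 CPM against 34.4 to 96.1 CPM, and Cma1 was not, at 81.8 CPM against 22.4 to 103 CPM. The part of these cells in the Cdkn1a level was not tested.

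Among the others, Ckap2, a spindle protein, had a log2 change of 0.21 (95% interval −0.03 to 0.45). Plk3, a stress-activated polo-like kinase, had 4 to 30 counts per sample and a log2 change of −1.01 (95% interval −2.05 to 0.03, limma adjusted p = 0.172). It lay at 4.63 CPM in AG636 sample 3 and at 0.64 to 1.87 CPM in the other AG636 samples, and without AG636 sample 3 its adjusted p was 0.0427. Without Vehicle sample 4 as well, the log2 change was −1.54 (adjusted p = 0.0487). Plk3 passed the filter on low values through its Vehicle samples, where it is higher, so these 2 values lend no support to a fall. The 3′ end of Plk3 overlaps Tctex1d4 on the opposite strand. Gadd45a, a stress protein that binds PCNA, had 9 counts over the Vehicle samples and 27 over the AG636 samples, and Plk2 had 6 counts in all 8 samples, too few to test.

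Of 12 genes of apoptosis, 1 rose, 7 were not called and 4 were too low to test. A single call among 8 tested genes is too few to be read against the 5.47% of all tested genes that were called for a rise. Differences between roles were not tested. The gene that rose was Bbc3 (ENSMUSG00000002083, chromosome 7, 16308393 to 16318205, + strand), which encodes Puma, a BH3-only protein that blocks the survival proteins of the BCL2 family. It lay at 27.5, 26.7, 29.6 and 24.8 CPM in Vehicle and at 42.3, 52.0, 46.4 and 47.0 CPM in AG636. All AG636 samples were above all Vehicle samples, and the log2 change of 0.79 (SE 0.11, limma adjusted p = 0.00218) passed in all 18 alternatives.

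Bax, the pore-forming protein on which Puma acts, lay at 13.5, 10.6, 9.28 and 9.13 CPM in Vehicle and at 15.7, 9.74, 17.7 and 15.6 CPM in AG636. Its log2 change was 0.45 (SE 0.22, limma adjusted p = 0.188), and AG636 sample 2 alone lay within the Vehicle range. Without that sample Bax passed (adjusted p = 0.0429), as did Ei24, a membrane protein of the endoplasmic reticulum (adjusted p = 0.0334, in place of 0.0995). For both genes this was the only 1 of 18 alternatives under the threshold. It left out their lowest AG636 sample, so it lends no support to a rise. Ei24 had a log2 change of 0.26 with all samples. Eda2r, a receptor of the TNF family, was at 10 to 35 counts per sample and its log2 change was 0.68 (SE 0.37). Phlda3, which keeps Akt from the membrane, had a log2 change of 0.13 (95% interval −0.23 to 0.49). Aen, a nuclease, had one of −0.15 (−0.50 to 0.20). Values for Pidd1, the scaffold that activates caspase-2, were −0.11 (−0.53 to 0.32), and those for Apaf1, the core of the apoptosome, 0.02 (−0.17 to 0.22). The interval of Apaf1 leaves out a change of the size seen for Bbc3 in either direction.

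Some classical apoptotic targets were hardly detected in these cells. Perp, a membrane protein of epithelia, had 0 counts in all 8 samples, where 3 counts correspond to 0.419 to 0.49 CPM. Pmaip1, which encodes the BH3-only protein Noxa, had 2 counts in all, both in AG636 sample 2. The death receptor genes Fas and Tnfrsf10b had 4 and 7 counts over the 8 samples. At this depth no difference between the groups could be detected for these 4 genes.

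Of 5 genes of DNA repair, 2 rose and 3 were not called, where 5.47% of all tested genes rose. Polk (ENSMUSG00000021668, chromosome 13, 96480690 to 96542579, − strand), a polymerase that copies past damaged bases, lay at 28.8, 32.9, 31.6 and 29.5 CPM in Vehicle and at 47.7, 43.4, 46.0 and 44.1 CPM in AG636. Both groups were tight and separate, and the log2 change was 0.56 (SE 0.09, limma adjusted p = 0.00481). Ercc5 (ENSMUSG00000026048, chromosome 1, 44147744 to 44181260, + strand) encodes the endonuclease XPG, which cuts the damaged strand in nucleotide excision repair. It lay at 32.2, 26.1, 27.4 and 21.3 CPM in Vehicle and 42.8, 39.3, 33.4 and 39.03 CPM in AG636, with a log2 change of 0.54 (SE 0.14, adjusted p = 0.0267). Ercc5 lost its call without Vehicle sample 2, 3 or 4, without AG636 sample 1, and with no filter on low counts (adjusted p up to 0.0730).

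Rrm2b encodes p53R2, a small subunit of ribonucleotide reductase that supplies deoxynucleotides outside S phase. It lay at 4.81, 5.84, 6.04 and 7.15 CPM in Vehicle and at 8.86, 8.62, 9.41 and 8.24 CPM in AG636. The groups did not overlap, but with a log2 change of 0.57 (SE 0.18) the limma adjusted p of 0.0593 missed the threshold. It passed with library size alone, with at least 10 counts in every sample, and with sample quality weights, where the lowest adjusted p was 0.0425. The damage-recognition genes Ddb2 and Xpc had log2 changes of −0.13 (95% interval −0.48 to 0.21) and −0.10 (−0.40 to 0.20). The 3′ end of Ddb2 overlaps Acp2 on the opposite strand, and the strand setting of the counting was not given in the sources used here. Within nucleotide excision repair, the gene for the nuclease was thus called and the genes for damage recognition were not, a difference that was not tested as such.

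Of 6 metabolic genes, 1 rose, 3 were not called and 2 were too low. This single call is too few to be read against the 5.47% of all tested genes that rose. Ak1 (ENSMUSG00000026817, chromosome 2, 32621758 to 32635058, + strand), an adenylate kinase that balances ATP, ADP and AMP, lay at 2.77, 1.54, 2.94 and 1.98 CPM in Vehicle and at 3.89, 6.86, 5.59 and 6.22 CPM in AG636. These levels correspond to 10 to 43 counts per sample. The log2 change was 1.28 (SE 0.30, limma adjusted p = 0.0191), and it missed the threshold without Vehicle sample 2, without Vehicle sample 4 (adjusted p up to 0.0652), and without Vehicle sample 4 and AG636 sample 3 together. Ak1 passed the filter on low values through its AG636 samples, where it is higher, so the reported call alone is weak support for a rise. It was also called with at least 10 counts required in every sample, a filter that treats both groups alike. Sesn2, a sestrin that holds back mTORC1, lay at 5.10, 6.92, 6.19 and 3.65 CPM in Vehicle and at 5.13, 8.30, 11.01 and 11.997 CPM in AG636. As for Cdkn1a, AG636 samples 3 and 4 were the highest and AG636 sample 1 lay among the Vehicle samples (log2 change 0.71, SE 0.31, adjusted p = 0.150). Without AG636 sample 1 it passed (adjusted p = 0.0436), the only 1 of 18 alternatives under the threshold. That fit left out the lowest AG636 sample, so it lends no support to a rise of Sesn2. Its relative Sesn1 had a log2 change of 0.02 (95% interval −0.26 to 0.30), which changed sign when single samples were left out and went down to −0.054. Dcxr, a carbonyl reductase, had a log2 change of 0.52 (−0.11 to 1.14). Tigar, a phosphatase that slows glycolysis, had 27 counts over the 8 samples, and Ephx1, an epoxide hydrolase, had 14.

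The 12 genes that rose were compared across samples as a description, since the fit that chose them used the same values. Their median deviation from the Vehicle mean on the log2 CPM scale was 0.65, 0.59, 0.75 and 0.86 in AG636 samples 1 to 4, and −0.11 to 0.06 in the Vehicle samples. AG636 sample 2 had the smallest deviation, and it was the lowest of its group in 17 of the 31 tested genes. AG636 samples 3 and 4 were each the highest of their group in 11 genes. AG636 sample 3 lay among the Vehicle samples on the first dimension of the scaling, at −0.36. Its place above them in these 12 genes cannot be set against this, since its values helped to choose the genes.

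Psrc1, Gtse1 and Ckap2 are expressed mainly in G2 and mitosis, so a list of 18 mitotic genes was examined beside them. Such genes are known to fall when p53 and p21 arrest the cycle. All 18 had a positive log2 change, with a median of 0.31, and 8 rose and 0 fell in the limma-voom fit. With edgeR and DESeq2, 0 of them were called lower as well. Over all tested genes, 5.47% were called for a rise and 8.49% for a fall. Cenpf, a kinetochore protein, was at 243 ± 23.6 CPM in Vehicle and 345 ± 14.7 CPM in AG636 (SD, n = 4), a log2 change of 0.51. Cyclin B genes were higher as well, with Ccnb2 at 0.58 (limma adjusted p = 0.0198) and Ccnb1 at 0.45 (adjusted p = 0.0322). The other genes named by p-value were Nusap1 at 0.58, Cdc20 at 0.55 and Aurka at 0.58. Cenpf and Nusap1 passed in all 8 fits without 1 sample. Without Vehicle sample 1, 2 or 3, 2 of the 18 genes were called, and 3 without AG636 sample 1. Without the 3 genes of G2 and mitosis, 10 of the remaining 36 p53 genes rose and 1 fell. Neither the part of the cell cycle in the values of Psrc1 and Gtse1 nor an arrest by p53 and p21 was tested.

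A second list of 36 further p53 targets gave a mixed picture. Of its genes, 26 were tested, 4 rose, 2 fell and 20 were not called, and their median log2 change was 0.05. Dglucy, a D-glutamate cyclase, was at 22.9 ± 7.49 CPM in Vehicle and 53.6 ± 12.8 CPM in AG636 (SD, n = 4), with a log2 change of 1.25 (limma adjusted p = 0.0115). Tob1, an antiproliferative relative of Btg2, had a log2 change of 1.22 (adjusted p = 0.0330), and Foxo3 and Lpin1 had values of 0.43 and 0.38. Over all tested genes, 5.47% were called for a rise and 8.49% for a fall, so the 2 falls among 26 genes lie near the general share. Gls2, a glutaminase, went from 12.8 ± 2.18 to 7.98 ± 1.38 CPM, a log2 change of −0.67 (adjusted p = 0.0364), and Sco2, which delivers copper to cytochrome c oxidase, from 13.9 ± 1.52 to 8.76 ± 0.738 CPM, a log2 change of −0.66 (adjusted p = 0.0180). Of the 6 calls, Dglucy passed in all 8 fits without 1 sample. Lpin1 was lost without Vehicle sample 3 (adjusted p = 0.0530) and Sco2 without Vehicle sample 1 (adjusted p = 0.0577) and without Vehicle sample 4 and AG636 sample 3 together (adjusted p = 0.0570). Tob1 passed in 3 of these fits, those without Vehicle sample 4 or AG636 sample 2 or 3. Foxo3 passed in those without AG636 sample 1 or 3, and Gls2 in the one without AG636 sample 3.

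The genes that act upstream of p53 were also listed, 27 kinases, scaffolds, cofactors and ubiquitin enzymes, of which 25 were tested. Here 1 rose and 1 fell, with a median log2 change of −0.02. Over all tested genes, 5.47% were called for a rise and 8.49% for a fall, so these counts are no more than the general share. Mdc1, a scaffold at DNA breaks, was at 37.1 ± 1.06 CPM in Vehicle and 56.2 ± 7.16 CPM in AG636 (SD, n = 4), with a log2 change of 0.59 (limma adjusted p = 0.00737). Trp53bp1, which directs the repair of breaks and binds p53, was lower, at 77.1 ± 6.74 and 58.1 ± 8.46 CPM (log2 change −0.42, adjusted p = 0.0424), and this call was lost in 13 of the 18 alternatives. Neither the damage kinases Atm, Atr and Chek2, with log2 changes of −0.11, −0.02 and −0.02, nor Chek1 (−0.46, adjusted p = 0.0635) was called. The ribosomal proteins that bind Mdm2 when ribosome assembly fails, Rpl5 and Rpl11, had values of −0.41 (adjusted p = 0.0806) and −0.04.

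**Figure D4:**
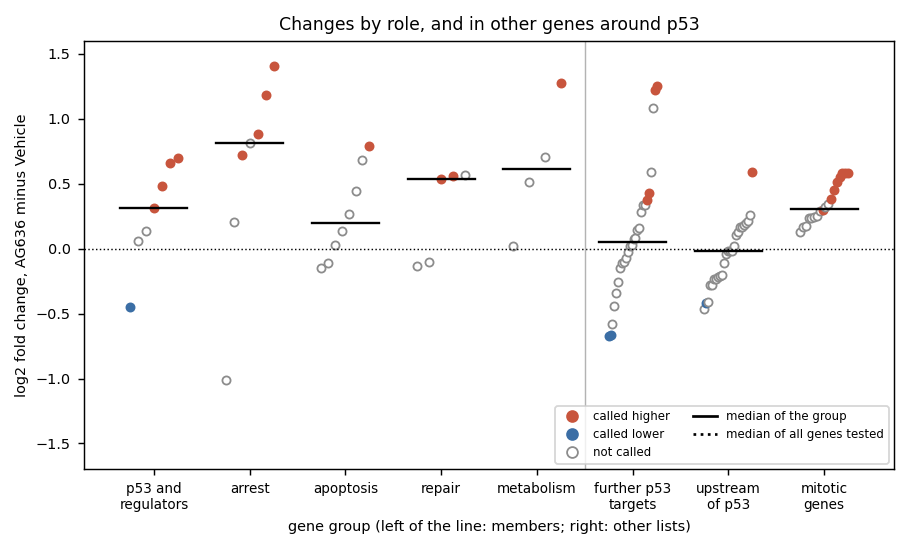
Limma-voom log2 changes (AG636 minus Vehicle) of tested genes, 1 point per gene, for the p53 genes by role on the left and for 3 other lists on the right, with group medians as bars and the median of all genes tested as a dotted line. Group medians lie at 0.31, 0.81, 0.20, 0.54 and 0.61 for regulators, arrest, apoptosis, repair and metabolism, and at 0.05, −0.02 and 0.31 for further targets, upstream genes and mitotic genes.

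**Figure D5:**
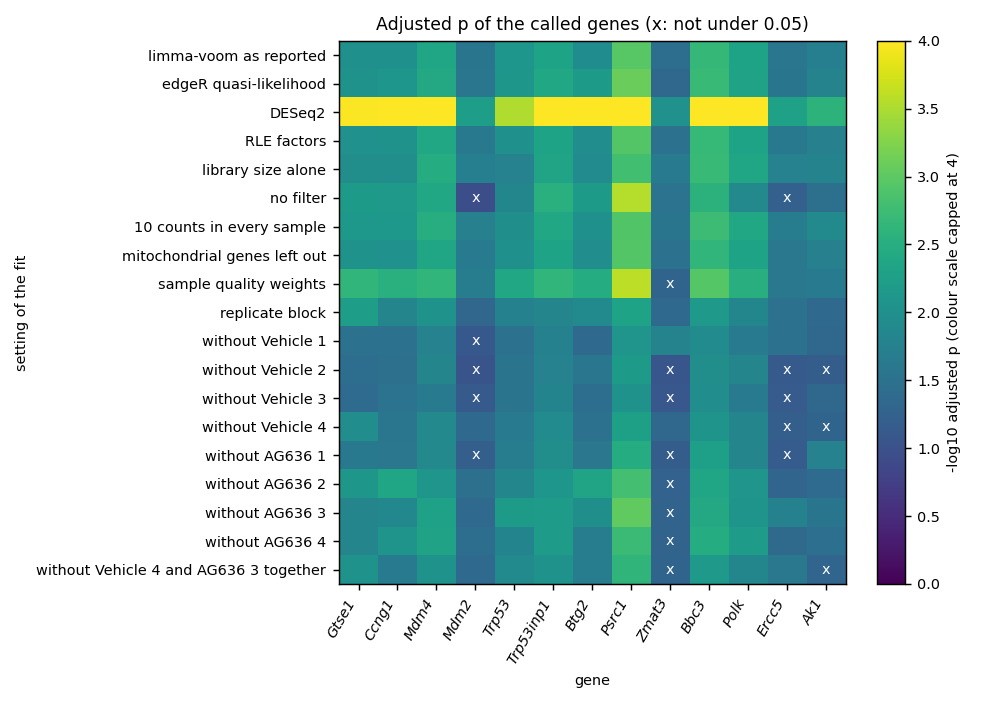
Adjusted p-value of the 13 called genes (columns) under the reported fit and 18 alternatives (rows), as −log10 in colour, with an x where the value was not under 0.05. Trp53, Mdm4, Ccng1, Gtse1, Trp53inp1, Btg2, Psrc1, Bbc3 and Polk have no x, and the crosses fall on Mdm2, Zmat3, Ercc5 and Ak1.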

How the data were processed

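Read counts per Ensembl gene (54838 genes, GRCm38) were deposited by the authors as raw counts for 8 samples. The authors removed low-quality reads, trimmed primer and poly-A bases with cutadapt, aligned to mm10 with HISAT2 (2.0.4 in the submitters' processing notes) and counted with featureCounts of Subread (1.5.0-p3 in those notes, while the study's methods give another version). Strand and multi-mapping settings were not given in the sources used here. Libraries were made with the QuantSeq 3′ mRNA kit, without molecular identifiers being mentioned, so floors cover counting error only. A floor of 3 counts was used.

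Gene symbols were looked up by Ensembl ID, and 115 IDs had none. Samples were grouped by their titles. Genes were kept by filterByExpr (minimum count 10), scaled by TMM factors (0.961 to 1.05) and compared by limma-voom with group as the only term, since the study names limma (versions: R 4.3.3, limma 3.58.1, edgeR 4.0.16). CPM were computed from the counts with those factors. Tests were two-sided with Benjamini-Hochberg adjustment over all 10911 genes tested, and an adjusted p-value under 0.05 was the threshold. No replicate pair agreed within sampling noise (chi-square per degree of freedom at least 3.90). In simulated counts, the fit recovered 76.1% of 197 tested genes changed by 1 log2 unit, out of 10911 genes simulated, and 3.23% of its calls were false.

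The 39 genes, the lists of further targets, upstream genes, mitotic genes and markers, and the tests were chosen with earlier results of these data known. All 39 genes are named, those called with their values in each sample, and from each other list at most 6 called genes with the smallest p-values. Chek1, Atm, Atr, Chek2, Rpl5 and Rpl11 were added after their values were seen. Alternatives comprised edgeR's quasi-likelihood test, DESeq2 (1.42.0), other scaling and filters, a replicate block, single samples left out and, chosen after seeing the data, Vehicle sample 4 and AG636 sample 3 left out together. Promoter sequences are from RefSeq (GRCm38.p6).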

Additional observations from a re-analysis of the deposited data

Results flagged for a closer look

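The 62 combinations of a tested p53 gene and a group were examined for a sample that lay farther from the other 3 than Dixon's ratio allows at 95%. There were 3 such values, and chance gives about 3.1, so no pattern is read from them. Ppm1d was at 22.7 CPM in Vehicle sample 3, against 26.2 to 26.4 CPM in the other Vehicle samples. Apaf1 was at 71.5 CPM in Vehicle sample 1, against 64.2 to 65.1 CPM. Trp53inp1 was at 25.6 CPM in AG636 sample 4, against 17.7 to 18.8 CPM in the other AG636 samples, and it stayed under the threshold without that sample.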

How the results depend on the processing

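The calls of the p53 genes changed little with the tool or the scaling. The same 13 genes were called by edgeR, by DESeq2, with RLE factors, without mitochondrial genes and with the replicate block. Rrm2b was added with library size alone and with 10 counts in every sample. With no filter 11 of the 13 remained, and with quality weights 12 of them did. At an adjusted p-value under 0.01, 7 genes were called higher. When single samples were left out, the number called higher ranged from 8 (without Vehicle sample 2) to 13 and the number called lower from 1 to 2, and the median log2 fold change ranged from 0.38 to 0.53. Without Vehicle sample 4 and AG636 sample 3 together, 2 genes were called lower, of which Plk3 passed the filter through its Vehicle samples. The median was 0.34, and the values of Pidd1 and Apaf1 reversed to 0.030 and −0.011.

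Same-numbered samples of the groups deviated from their group means with correlations of −0.14 to 0.203. Differently numbered samples were not compared, so these values cannot decide whether the replicate numbers pair the samples. With the replicate number as a block, 13 of the 39 genes were called, as without it, against 616 genes higher and 830 lower overall.

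The other counts moved more. Over all genes, 955 were higher by DESeq2, library size alone gave 918 higher and 571 lower, and the stricter threshold gave 140 higher and 295 lower, against 597 and 926 in the reported fit. Leaving out single samples gave 221 (without Vehicle sample 3) to 769 higher and 467 to 937 lower. Further targets called lower fell from 2 to 1 with library size alone and with no filter. At the stricter threshold, 0 were higher and 0 lower. Without single samples 1 to 4 were higher and 0 to 3 lower. The single upstream gene called lower was lost (0 calls) with RLE factors, library size alone, no filter, 10 counts in every sample, without mitochondrial genes, and at the stricter threshold, and quality weights gave 2 calls. Upstream genes called higher became 2 with library size alone and without both samples, and those called lower ranged from 0 to 2 without single samples. Mitotic genes called higher numbered 1 at the stricter threshold and 2 to 10 without single samples. The causes were not tested. Values that turned in sign without single samples were those of Sesn1 (−0.054 to 0.098), Rps27l (−0.038 to 0.163), Pidd1 (−0.213 to 0.027) and Apaf1 (−0.022 to 0.065). Depth limits Plk3, Eda2r and Ak1, with 4 to 43 counts per sample, and 8 genes could not be tested.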
